A study of Mus musculus with 7 samples.

Results

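Interferon-stimulated genes are the genes that a cell turns on after an interferon binds its receptor. Here a list of 52 such genes was followed in mouse neutrophils. It was drawn from general knowledge of the pathway, with earlier results of these data known. Of the 52, 46 had a row in all 7 deposited count tables and form the set described below. The tables share 6677 genes in all. Of the other 6 listed genes, Mx1, Ifi44, Gbp3, Phf11d and Iigp1 lacked a row in at least 1 table, with at most 3 UMIs in all for Mx1, Ifi44 and Iigp1, 6 for Phf11d and 119 for Gbp3, and Mx2 was not used here. No sample in the series was treated with interferon, so the name rests on what the genes are known for and not on a response measured here.

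Neutrophils of male C57BL/6J mice, sorted live as CD11b+ Ly6G+, were profiled by droplet single-cell RNA sequencing, which counts unique molecular identifiers (UMIs, 1 per captured mRNA molecule). Healthy blood, healthy bone marrow and healthy spleen were each sampled in run 1 (mice aged 6 weeks) and run 2 (8 weeks). Each of these libraries pooled 3 mice, and within a run the same animals gave all 3 tissues. A further library, labelled experimental inflammation, held 5 hashtag-marked conditions from mice aged 8 weeks. They were healthy blood, blood and joint lavage on day 7 from mice given 150 µl of arthritis-inducing K/BxN serum on days 0 and 2 (arthritic blood, arthritic joint), and lung and peritoneal lavage 3 h after 25 ng of IL-1β. All mice were wild-type, each of these conditions was 1 pool, and the inflamed sites other than arthritic blood differ from the control in tissue as well as in treatment, so tissue and treatment cannot be told apart.

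Of 21763 deposited cells, 17607 were used: healthy cells with S100a8 and S100a9 (the most abundant neutrophil transcripts) at 3% or more of UMIs, and inflammation cells that the authors had annotated as granulocytes. Total UMIs ran from 942688 to 10293966 per library or condition and the median UMIs per cell from 775 to 3681. All 15 neutrophil markers looked for were seen in each of the 11. Any 2 libraries shared between 0 and 36 cell barcodes. Spleen run 1 stood apart from spleen run 2: the granule genes Camp, Ngp, Ltf and Lcn2, which mark less mature neutrophils, took 10.2% of its UMIs against 1.67%. Blood run 2 carried 3.03% erythroid UMIs, against at most 0.0912% elsewhere. The monocyte and macrophage list held 0.0269% to 0.139% of UMIs and was highest in bone marrow and spleen of run 1, and the B cell list held at most 0.0903%, in spleen run 2. RNA of other cells and free RNA in the droplets can add UMIs to any of these genes, and their part in the levels was not tested.

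As background, type I interferons signal through Ifnar1 and Ifnar2 to Jak1 and Tyk2, which activate Stat2. With Irf9 it is part of a complex that binds a short DNA element, the interferon-stimulated response element (ISRE), in front of its target genes. Interferon gamma acts through its own receptor, Jak1 and Jak2, and a further element (GAS). The target genes code for sensors of viral nucleic acid, enzymes that degrade or block viral RNA, ubiquitin-like modifiers, and the transcription factors that renew the response.

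The element can be read in front of many of these genes. Searched on both strands as GAAA, any 2 bases and GAAA again (TTTC, any 2 bases and TTTC on the other strand), from 250 bases before to 50 bases after each RefSeq start, it was present for 21 of the 37 listed genes with a promoter entry, or 56.8%, and for 3.99% of the 27025 mouse genes with one. The GAS letters TTCNNNGAA, a motif that can overlap an ISRE match, were present for 7 of 37 (18.9%) and for 9.55% of all genes. The stretches below hold ISRE letters of 8 members that return in the results. They are mouse GRCm38.p6 reference sequence, 5′ to 3′ on the strand of the gene, with the ISRE letters in capitals. They come from Ifit1 (chr19:34640773-34640825, plus strand), Ifit3 (chr19:34583361-34583428, plus), Ifit3b (chr19:34607757-34607824, plus), Isg15 (chr4:156200863-156200908, minus), Rsad2 (chr12:26456551-26456584, minus), Gbp2 (chr3:142620592-142620625, plus), Oas1a (chr5:120907518-120907557, minus) and Irgm1 (chr11:48871423-48871462, minus).
Ifit1: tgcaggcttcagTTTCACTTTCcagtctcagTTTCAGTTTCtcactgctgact
Ifit3: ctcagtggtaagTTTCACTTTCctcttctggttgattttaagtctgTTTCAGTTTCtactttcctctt
Ifit3b: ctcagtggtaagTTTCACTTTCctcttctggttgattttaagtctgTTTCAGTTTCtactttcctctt
Isg15: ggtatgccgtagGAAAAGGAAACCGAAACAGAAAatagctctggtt
Rsad2: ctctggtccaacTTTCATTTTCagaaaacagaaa
Gbp2: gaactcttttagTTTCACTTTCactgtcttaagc
Oas1a: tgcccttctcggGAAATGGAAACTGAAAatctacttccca
Irgm1: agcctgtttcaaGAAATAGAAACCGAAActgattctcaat

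In Ifit1 the 2 matches began 104 and 85 bases before the start of the transcript, and in Isg15 3 overlapping matches began between 78 and 66 bases before it. Ifit3 and Ifit3b, neighbouring genes, showed the same 68 letters. Their transcripts were identical at 1663 of 1697 aligned bases (98.0%), so reads may be split between them by the counting and each level is uncertain. Ifit3b took 38.0% to 48.5% of the UMIs of the pair in the 11 libraries and conditions. No promoter entry matched Oas2, Usp18, Ifi27l2a, Ifi204, Dhx58, Rtp4, Zbp1, Parp9 and Parp14. Members were also close to each other on the chromosomes: 25 of the 46 lay within 500 kb of another member, in 9 groups. Ifit1, Ifit2, Ifit3 and Ifit3b lay together on chromosome 19, Slfn1, Slfn4, Slfn5 and Slfn8 on chromosome 11, and Rsad2 beside Cmpk2 on chromosome 12.

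In healthy mice the 46 genes together took a larger share of the neutrophil's UMIs in blood than in bone marrow. The share was 0.734% in blood run 1 and 0.529% in blood run 2 (mean 0.632% ± 0.144 SD, n = 2), against 0.196% and 0.162% in bone marrow (0.179% ± 0.0242, n = 2). Spleen had 0.375% and 0.492% (0.434% ± 0.0827, n = 2). Both blood libraries and both spleen libraries lay above both bone marrow libraries, and blood was 3.74 times bone marrow in run 1 and 3.27 times in run 2. Spleen was 0.511 of blood in run 1 and 0.929 in run 2, so the distance between these tissues differed between the runs. With 2 pools per tissue, and because the list was compiled with results of these data known, no p-value is given for the summed share.

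The share is a fraction of all mRNA molecules caught, and the total per cell differed between tissues. Bone marrow cells held on average 3522 and 2657 UMIs (run 1, run 2), blood cells 1041 and 948, and spleen cells 2368 and 973. Counted per cell, UMIs on the 46 genes were 6.91 and 4.31 in bone marrow, 7.64 and 5.02 in blood, and 8.88 and 4.79 in spleen. Per cell, the tissues of a run thus lay much closer together than per UMI. More interferon-stimulated mRNA per cell and less of all other mRNA cannot be told apart from the shares, and capture per cell was not measured.

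The share differed with granule gene content inside every healthy tissue. Cells in which the 4 granule genes took under 1% of UMIs (granule-low) had a higher share than the other cells (granule-high) in 6 of 6 healthy libraries. In blood the granule-low cells had 0.954% and 0.547% in the 2 runs and the granule-high cells 0.187% and 0.156%. In bone marrow the values were 0.488% and 0.321% against 0.151% and 0.120%, and in spleen 1.07% and 0.548% against 0.178% and 0.158%. Granule-high cells also held more UMIs of all genes, 2325 to 4047 per cell on average against 852 to 1919. Counted per cell, UMIs of the set were 8.12 and 5.03 in granule-low cells of blood against 4.35 and 4.36 in granule-high cells, 9.36 and 5.01 against 6.11 and 3.92 in bone marrow, and 10.8 and 4.76 against 6.81 and 5.38 in spleen. The gap was smaller per cell than per UMI, and in spleen run 2 it turned. Granule-high cells made up 75.3% and 64.4% of bone marrow cells, 12.9% and 1.53% of blood cells, and 48.0% and 4.08% of spleen cells. Among granule-low cells alone, blood remained above bone marrow by 1.96 times in run 1 and 1.71 times in run 2, a smaller ratio than over all cells. Among granule-high cells alone blood was 1.24 and 1.30 times bone marrow. Granule-high cells were few in blood run 2, where 56 were used. In the inflammation library they made up 0.589% of healthy blood, 0.983% of arthritic blood and 0.245% of joint cells. They were 8.68% of lung and 38.7% of peritoneal cells. There too their share was below that of granule-low cells, except in arthritic blood (1.29% against 0.459%, from 8 granule-high cells).

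**Figure D1:**
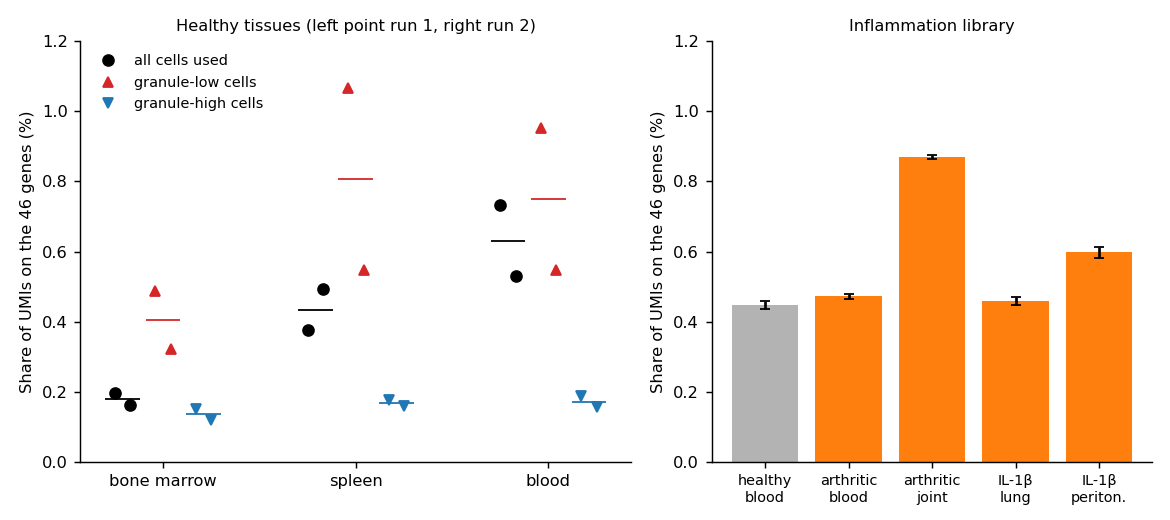
Share of all UMIs (y axis, %) that fell on the 46 interferon-stimulated genes. Left, the 3 healthy tissues, 1 point per run with the mean as a line, for all cells used and for granule-low and granule-high cells; right, the 5 conditions of the inflammation library as bars with exact 95% binomial intervals (counting error only). Both bone marrow libraries sit below 0.2% for all cells, granule-low cells lie above granule-high cells in each healthy library, and the arthritic joint stands at 0.870%.

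A few genes carried most of the sum. Ifi27l2a, a small hydrophobic membrane protein, held 22.4% to 39.9% of the UMIs of the set in the 6 healthy libraries, and the 5 most abundant members held 57.2% to 68.2%. UMIs of this 3′ assay count molecules and are not scaled to gene length. As CPM, the UMIs of a gene per 1000000 UMIs of the library, Ifi27l2a stood at 2930 and 1473 in blood, 1360 and 1301 in spleen, and 680 and 363 in bone marrow. It was highest in both blood libraries, but the spleen of run 2 lay close to the blood of that run. The next most abundant by the mean over healthy libraries were Slfn1, Rtp4, Isg15, Slfn4, Oasl2, Trim30a, Irf7, Oas3, Samd9l, Rsad2 and Isg20. Lgals3bp was the scarcest member, at most 2.56 CPM, and was not tested. Without Ifi27l2a the mean shares became 0.411% in blood, 0.127% in bone marrow and 0.301% in spleen.

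Gene by gene, 32 of the 45 members tested were higher in blood than in bone marrow and none was lower (edgeR quasi-likelihood test on summed UMIs with the run as a block, adjusted p at most 0.05, n = 2 libraries per tissue). In the same test 22.1% of 7667 genes were called, 12.0% higher and 10.1% lower. The members were listed with earlier results of these data known, so their counts and p-values describe this list only. The median log2 difference was 1.39 over the members and -0.03 over all genes. All these differences are per UMI, and bone marrow cells held more UMIs each. The spread behind these calls is that between 2 pools. With edgeR, 0 of 45 were called without blood replicate 1, where 0.699% of all genes were, and 0 without blood replicate 2, where 0.0% were, so that few genes were called at all. The median over the members was then 1.40 and 1.58, and 32 and 31 members passed an unadjusted p of 0.05. Without the run as a block 15 of the 32 were called, beside 2.62% of all genes. DESeq2 called 21, each of them among the 32, beside 12.3% of the 9105 genes it fitted.

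Per UMI, the transcription factors of the response were all higher in blood. Irf7, which amplifies interferon production and is itself induced, stood at 187 and 137 CPM in blood against 34.1 and 33.2 in bone marrow (log2 difference 1.96 ± 0.22 SE, adjusted p = 0.00314). Stat2 (1.51) and Irf9 (0.99), both parts of the ISRE-binding complex, were also called. Irf9 was nevertheless seen in fewer blood cells (7.96% and 6.59%) than bone marrow cells (11.4% and 7.27%). Irf7 was seen in 14.5% and 10.8% against 10.5% and 7.76%, and Stat2 in 1.38% and 1.14% against 1.16% and 1.05%. Of the RNA and DNA sensors Ddx58, Ifih1, Dhx58, Ddx60 and Zbp1, a list that leaves out the OAS and p200 families, Ddx58 (RIG-I, a sensor of viral RNA) was called, at 1.19. Ifih1 (1.05, adjusted p = 0.0801), Zbp1 (0.46), Ddx60 (0.30) and Dhx58 (0.23) did not pass.

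Among the IFIT and OAS families most members were called. Ifit1, whose product binds viral RNA that lacks the host's cap methylation, stood at 81.6 and 63.2 CPM in blood, 46.5 and 70.0 in spleen, and 18.1 and 14.9 in bone marrow. All 4 blood and spleen libraries lay above both bone marrow libraries, and blood differed from bone marrow by 1.84 ± 0.24 (adjusted p = 0.00445). Ifit3b (2.58) and Ifit3 (2.08) were called as well. Ifit2 was sparse, at 2.09 to 8.09 CPM, and did not pass (1.26 ± 0.88, adjusted p = 0.343). Of the OAS family, named for enzymes that sense double-stranded RNA and make the messenger that switches on RNase L, Oasl2, Oasl1, Oas2 and Oas3 were called. Oasl2 had 335 and 259 CPM in blood, 111 and 246 in spleen, and 34.9 and 26.7 in bone marrow, with a difference of 2.99 ± 0.32 between blood and bone marrow (adjusted p = 0.0027). Oasl1 differed by 2.88. Oas1a went its own way between runs, with 25.7 and 19.2 CPM in blood, 45.4 and 22.0 in spleen, and 27.8 and 9.67 in bone marrow, and its blood and bone marrow values overlapped (0.21, adjusted p = 0.676).

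All 8 members of the ubiquitin, ISG15 and PARP system were higher in blood. Isg15, a ubiquitin-like protein that is joined to other proteins, had 401 and 402 CPM in blood, 223 and 357 in spleen, and 67.6 and 70.4 in bone marrow. The runs agreed closely within blood and within bone marrow, and the difference was 2.26 ± 0.21 (adjusted p = 0.00216). Usp18, the protease that removes ISG15 and restrains receptor signalling, differed by 1.27, and Herc6, a ligase that attaches ISG15 in mice, by 1.39. Parp14 differed by 1.99, Trim30a by 1.92, Dtx3l by 1.25, Parp9 by 1.13 and Trafd1 by 0.81.

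Among the enzymes acting on RNA, nucleotides and translation, Isg20 (an RNA exonuclease, 1.94) and Rsad2 (viperin, which makes a chain-terminating nucleotide, 1.75) were called. Rsad2 stood at 106 and 104 CPM in blood, 61.0 and 85.4 in spleen, and 28.0 and 23.4 in bone marrow. Its genomic neighbour Cmpk2, a mitochondrial nucleotide kinase, stood at 66.9 and 39.6 CPM in blood against 54.6 and 45.8 in bone marrow, so that these values overlapped (-0.26, adjusted p = 0.535). Samd9l, a translation inhibitor, had the lowest difference of all members, with 58.1 and 61.2 CPM in blood and 70.4 and 108 in bone marrow. Both blood values lay below both bone marrow values, but the test did not pass (-0.86 ± 0.30, adjusted p = 0.0798). Samd9l was called lower in blood when cells were filtered by mitochondrial share and gene number or had no UMI of other blood cell types. Eif2ak2 (PKR, 0.26) did not pass.

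The Schlafen family, regulators of growth and tRNA in immune cells, held the largest difference. Slfn5 stood at 18.4 and 27.6 CPM in blood, 6.70 and 24.0 in spleen, and 1.41 and 1.65 in bone marrow, a log2 difference of 3.65 ± 0.38 (adjusted p = 0.00262). Slfn8 (2.04) and Slfn1 (1.29) were called. Slfn4 had 276 and 240 CPM in blood against 108 and 140 in bone marrow and just missed the threshold (0.77, adjusted p = 0.0516). All 5 GTPases of the GBP and IRG families, which act on membranes of vacuoles around intracellular microbes, were called: Gbp2 (2.52), Irgm1 (1.70), Ifi47 (1.66), Igtp (1.64) and Gbp7 (1.26). Gbp2 had 27.2 and 56.0 CPM in blood against 3.77 and 8.13 in bone marrow. Of the remaining members Rtp4 (1.81), Ifi27l2a (1.79) and Ifi204 (1.76) were called, and Xaf1 (0.58), Bst2 (0.18) and Ifi203 (0.69) were not.

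**Figure D2:**
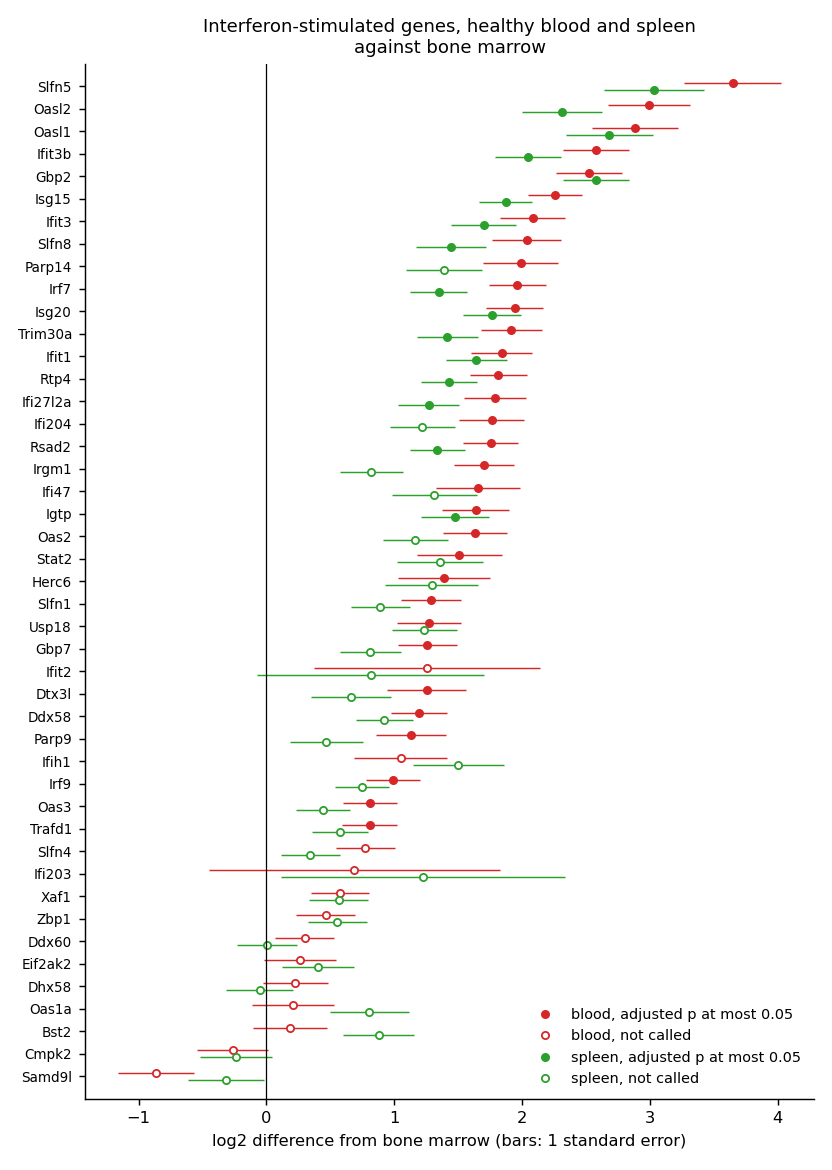
Log2 difference from healthy bone marrow (x axis, with 1 standard error) for each of the 45 tested members (y axis), in healthy blood (red) and healthy spleen (green), from edgeR on summed UMIs of 2 libraries per tissue. Filled points passed an adjusted p of 0.05: 32 in blood and 16 in spleen, all to the right of 0. Samd9l and Cmpk2 lie left of 0 in both tissues.

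In spleen against bone marrow 16 of the 45 were called, all higher, where 2.75% of all genes were called, 2.23% higher and 0.522% lower. The median log2 difference was 1.22 over the members and -0.02 over all genes. The largest were Slfn5 (3.03 ± 0.39, adjusted p = 0.0188), Oasl1 (2.68), Gbp2 (2.58), Oasl2 (2.32), Ifit3b (2.04) and Isg15 (1.87). Isg20, Ifit3, Ifit1, Igtp, Slfn8, Rtp4, Trim30a, Irf7, Rsad2 and Ifi27l2a made up the rest, at 1.27 to 1.76. Thus 3 of 4 IFIT genes, 2 of 5 OAS genes, 2 of 8 genes of the ubiquitin system and 0 of 5 sensors passed here. With edgeR, 0 of the 45 were called without either blood library, which enter the estimate of spread, and 0 without the run as a block, and in each of these 3 fits 0.0% of all genes were called. The median over the members was 1.19 without either blood library and 1.23 without the block, and 30 or 31 members passed an unadjusted p of 0.05. Without the spleen of run 2, 7 were called beside 1.11% of all genes, with a median of 0.93.

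No member differed between spleen and blood by edgeR (0 of 45, beside 0.0522% of all genes), and DESeq2 called 0 as well. At an unadjusted p of 0.05, 3 members passed with edgeR and 2 with DESeq2. The median difference was -0.34, with 9 of 45 members above 0. It turned to 0.08 in granule-low cells (28 of 44 above 0) and to 0.10 in cells with no UMI of another cell type (28 of 43), and the summed share of spleen was then 1.12 and 1.00 times that of blood (run 1, run 2) in granule-low cells and 1.04 and 1.06 times in cells with no UMI of another type. Which of these tissues is higher thus rests on the cells used. Irgm1 had the largest, at 17.1 and 15.8 CPM in spleen against 37.5 and 29.3 in blood (-0.88 ± 0.24, adjusted p = 0.385), and Bst2, a protein that tethers budding virus, leaned the other way (0.70 ± 0.29, adjusted p = 0.477). With 2 libraries per tissue and different granule content in the 2 spleens, no difference was called, which does not show that the tissues were alike.

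Because granule-high cells were most frequent in bone marrow, the tests were run again on granule-low cells alone. In blood against bone marrow 11 of 44 members were then called, where 10.6% of all genes were. Of these, 10 were higher and among the 32 above: Slfn5 (1.96), Oasl2 (1.64), Parp14 (1.39), Isg15 (1.34), Oasl1 (1.28), Irf7 (1.22), Gbp2 (1.11), Trim30a (1.01), Isg20 (0.92) and Ifit3b (0.91). Ddx60, a helicase that acts with the RNA sensors, was lower (-0.80, adjusted p = 0.0351). The median difference over the members was 0.54. In spleen against bone marrow 11 of 44 were higher, where 8.73% of all genes were called, and the median was 0.66. Leaving out cells with any UMI of B, T, NK, monocyte or plasmacytoid dendritic cell markers gave 18 calls among 43 members in blood against bone marrow, 16 higher and 2 lower (Samd9l, Ddx60), where 16.8% of all genes were called. Such UMIs were seen in 88.1% and 82.0% of bone marrow cells, 36.1% and 32.4% of blood cells, and 59.6% and 52.0% of spleen cells. In every healthy library the cells kept held fewer UMIs on average. They held 1782 per cell in bone marrow run 1 against 3522 over all cells, and 1029 against 2368 in spleen run 1. The filter thus also selects by depth, and depth and other-cell RNA cannot be told apart in it. The part of other cells and of maturity in the differences over all cells was not tested beyond these values.

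The pathway upstream was read from lists of other genes. In this comparison 12.0% of all genes were called higher in blood and 10.1% lower, against which the counts of these short lists are to be read. Blood exceeded bone marrow for 4 of 6 receptor chains, namely Ifnar1 (1.56), Ifngr1 (1.32), Il10rb (1.22) and Ifngr2 (0.76). Ifnar1 stood at 44.9 and 50.3 CPM in blood against 10.8 and 15.8 in bone marrow. Of the 9 kinases and factors reported here, 5 were called higher, namely Irf1 (1.71), Irf5 (1.58), Jak2 (1.41), Irf2 (1.10) and Irf3 (0.90). Myd88 (1.56) was 1 of 4 tested adaptors and sensors called, and Ptpn6 (0.73) and Socs3 (3.77) were 2 of 4 inhibitors called. Socs3, which blocks Jak kinases, had 160 and 230 CPM in blood, 44.7 and 247 in spleen, and 5.89 and 21.5 in bone marrow. Of 6 tested genes of a further list for interferon gamma, Tap1 (0.91) and Cd274 were called. Cd274 (PD-L1) had no row in bone marrow run 1, where it entered the fit as 0, and stood at 11.8 and 13.8 CPM in blood against 0.439 in bone marrow run 2. None of these lists had a gene called lower. In spleen against bone marrow, Socs3 (3.03), Myd88 (1.18) and Cd274 were called, and none in spleen against blood. The 11 interferon genes looked for had 0 UMIs wherever they had a row, which for Ifnb1 over 30917614 UMIs allows up to 0.097 CPM (counting error only).

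Within the inflammation library the arthritic joint had the highest share. There the 46 genes took 0.870% of UMIs against 0.447% in healthy blood of the same library, a ratio of 1.95 (95% interval 1.89 to 2.00). The ratio was 1.34 (1.29 to 1.39) in the peritoneum after IL-1β, 1.06 (1.02 to 1.09) in arthritic blood and 1.02 (0.986 to 1.06) in the lung after IL-1β. The shares were 0.598%, 0.472% and 0.458%. Healthy blood of runs 1 and 2 stood at 0.734% and 0.529%, and granule-low cells of blood run 1 at 0.954%, so healthy pools also differed. Per the study's methods those runs used an earlier chemistry than this library. Their cells were also chosen by another rule. Each condition of the library is 1 pool, so the intervals cover counting error only, there is no replicate check and no test is given. They also treat UMIs as independent, and so are narrow for counts that vary this much over cells (below). In granule-low cells the ratio of arthritic blood became 1.02, and its 8 granule-high cells had a share of 1.29%. Without Ifi27l2a, which held 14.8% of the set in healthy blood and 8.44% in the joint, the joint ratio became 2.09. With the TMM scaling described next, an alternative chosen after the values were seen, the ratios were 2.86 in the joint, 2.52 in the peritoneum, 1.91 in the lung and 1.45 in arthritic blood, so the distance between the joint and the IL-1β sites rests on the scaling.

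The ratios below are of CPM, for genes with at least 20 UMIs in the 2 conditions together, and a gene is counted from 2-fold. Healthy blood held 1124877 UMIs and the joint 10293966, so a sparse gene can pass this minimum through the joint alone. The genes compared thus differ between conditions. Over all genes compared, the median log2 fold against healthy blood was -0.40 in arthritic blood, -0.47 in the joint, -0.97 in the lung and -1.06 in the peritoneum. TMM scaling, which centres the bulk of the genes, gave healthy blood a factor of 1.48 against 1.08, 1.01, 0.793 and 0.787 in these conditions and raises every fold accordingly. The CPM folds of members are not corrected for this shift, and TMM folds are named as such.

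In the joint 24 of 45 members were at least 2-fold higher and none 2-fold lower, where 10.7% of 8148 genes were 2-fold higher and 25.9% 2-fold lower. The median member fold was 2.07. The IFIT family was higher as a whole: Ifit1 went from 29.3 CPM in healthy blood to 340 in the joint (11.6-fold, 95% interval 8.23 to 16.9), with 47.5 in arthritic blood, 30.3 in the lung and 64.7 in the peritoneum. The joint value lay far above the other 4. Ifit3b was 6.34-fold and Ifit3 5.66-fold higher. Ifit2 had 3 UMIs in healthy blood and 487 in the joint (17.7-fold, 6.03 to 86.3). It passed the minimum through the joint, where it was high, and was too sparse to compare in the lung and peritoneum. These 4 genes made up 8.95% of the UMIs of the set in the joint and 2.19% in healthy blood.

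The most abundant of the higher genes were Rsad2, Slfn4 and Isg15. Slfn4 stood at 403 CPM in healthy blood and 851 in the joint. Rsad2 stood at 164 CPM in healthy blood, 155 in arthritic blood, 867 in the joint, 76.5 in the lung and 198 in the peritoneum. It was the most abundant member in the joint and 5.30-fold above healthy blood (4.58 to 6.17). Isg15 stood at 123, 155, 795, 244 and 389 CPM in the same order, 6.48-fold higher in the joint (5.48 to 7.72). In arthritic blood, of the same disease model, Rsad2, Slfn4 and Isg15 did not pass 2-fold. Zbp1, a sensor of Z-form nucleic acid (6.32-fold), Xaf1, a promoter of cell death (6.05), Ifi47 (5.94), Oasl1 (5.56), Isg20 (3.91) and Usp18 (3.85) followed. At the other end lay Slfn1 (0.950), Ddx60 (0.929) and Trim30a (0.915), and Ifi27l2a was at 1.11, so the gene that led the sum in healthy tissues was not among those past 2-fold. By group, 4 of 4 IFIT genes, 4 of 5 RNA, nucleotide and translation effectors, 3 of 4 compared membrane and other effectors, 3 of 5 GTPases, 4 of 8 genes of the ubiquitin system, 2 of 5 OAS genes, 2 of 4 Schlafen genes, 1 of 3 transcription factors (Irf7), 1 of 5 sensors and 0 of 2 p200 genes passed 2-fold.

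The joint count was 34 with TMM scaling, where 18.4% of genes were 2-fold higher, and 16 of 44 in cells with no UMI of another cell type, where 11.2% were. In those cells the share of the set was 0.710% in the joint and 0.448% in healthy blood. Of the members with ISRE letters and of those without, 11 of 21 and 10 of 15 compared passed 2-fold in the joint. Between blood and bone marrow, 15 of 21 and 10 of 15 were called.

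**Figure D3:**
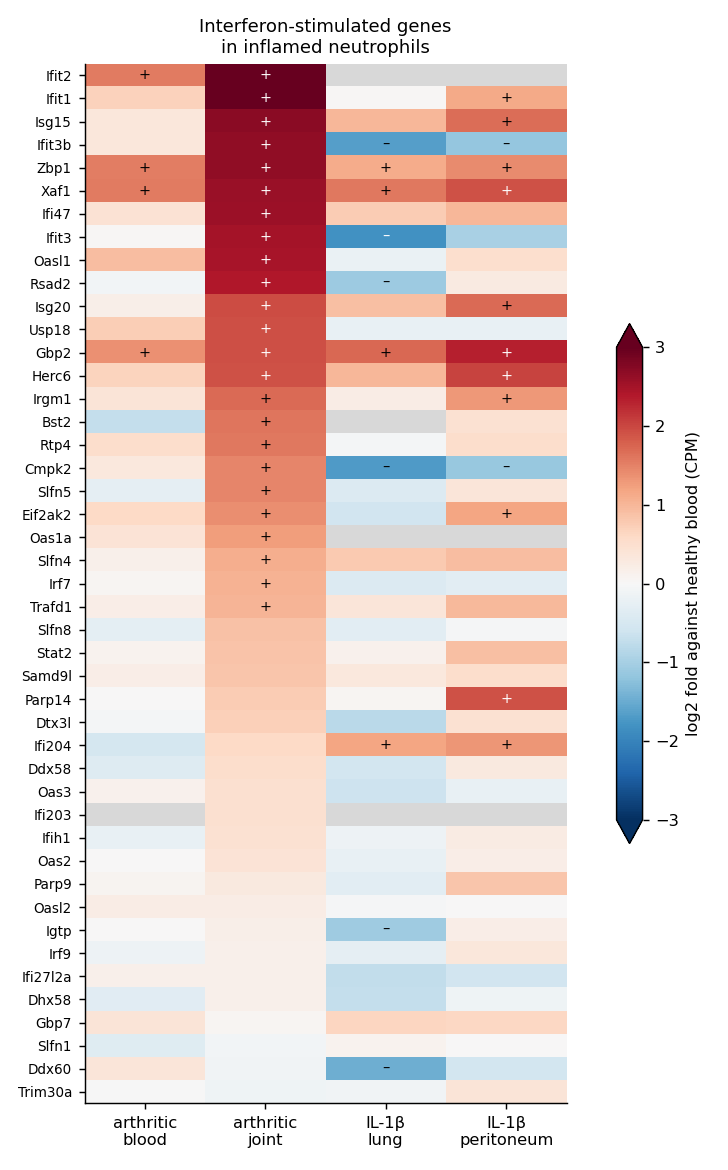
Log2 fold (colour) of each member (rows, ordered by the joint) in the 4 inflamed conditions (columns) against healthy blood of the same library, 1 pool per condition. A plus or minus marks folds of at least 2 up or down and grey marks members with fewer than 20 UMIs in the 2 conditions together; the joint column holds 24 plus signs and no minus sign.

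In arthritic blood 4 of 44 members passed 2-fold, all higher, where 1.21% of genes were higher and 11.3% lower: Gbp2 (2.57-fold, 1.59 to 4.35), Zbp1 (2.89), Xaf1 (2.92) and Ifit2 (2.92, from 3 and 21 UMIs). The median member fold was 1.12. Ifit2 and Xaf1 fell under the minimum when 50 UMIs were asked for, which left 2.

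After IL-1β Gbp2, a GTPase strongly induced by interferon gamma, was past 2-fold at both sites, as in arthritic blood and the joint. It stood at 17.8 CPM in healthy blood, 59.0 in the lung (3.32-fold, 2.01 to 5.73) and 89.1 in the peritoneum (5.01-fold, 3.05 to 8.62). Xaf1 and Zbp1 were also past 2-fold in every inflamed condition. In the lung 4 of 41 members were higher, where 10.9% of genes were, and 6 were lower, where 49.3% were. Ifi204, of the p200 family of DNA sensors, went from 136 to 307 CPM (2.25-fold, 1.87 to 2.73), and Xaf1 and Zbp1 were higher from at most 33 UMIs. The lower genes were Ifit3 (0.284), Cmpk2 (0.307), Ifit3b (0.319), Ddx60 (0.361), Rsad2 (0.467) and Igtp (0.479). With TMM scaling none was 2-fold lower, with Ifit3 at 0.530, and 15 were higher beside 21.6% of genes, so the direction of most members in the lung rests on the scaling. In the peritoneum 11 of 42 were higher, where 10.2% of genes were, and 2 lower, where 51.8% were. Besides Gbp2, the higher genes included Herc6 (4.06), Parp14 (3.73, 62.2 to 232 CPM), Isg20 (3.22), Isg15 (3.17) and Ifi204 (2.52). Cmpk2 (0.453) and Ifit3b (0.447) were lower, and neither was 2-fold lower with TMM scaling, where 30 members were higher beside 20.7% of genes.

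Other genes of the pathway were read in the same conditions. Cxcl10, a chemokine of the interferon gamma list, stood at 8.00 CPM in healthy blood (9 UMIs), 88.9 in the joint, 70.4 in the lung and 554 in the peritoneum. Cd274 stood at 48.0, 116, 256 and 571 CPM in these 4 conditions. Both were highest in the peritoneum, and the IFIT genes in the joint. Of the 7 compared genes of the list, 4 were 2-fold higher in the joint and none lower, beside 10.7% and 25.9% of all genes. In the lung 4 of 7 were higher and 3 lower, beside 10.9% and 49.3%, and in the peritoneum 3 of 6 were higher and 2 lower, beside 10.2% and 51.8%, so the counts of lower genes did not exceed those shares. The lower genes were Psmb8 (0.269-fold) and Psmb9 (0.181), subunits of the immunoproteasome, and Tap1 (0.439) in the lung, and Psmb8 (0.391) and Psmb9 (0.340) in the peritoneum. With TMM scaling, Psmb9 in the lung (0.337) was the one of these still 2-fold lower. Socs3 was at 175 CPM in healthy blood and 153 in the joint, but at 1496 in the lung and 1930 in the peritoneum. Irf1 was 0.337-fold in the joint, 0.233-fold in the lung, 0.827-fold in arthritic blood and 0.957-fold in the peritoneum. With TMM scaling these became 0.496, 0.435, 1.14 and 1.8. Ifnar1 lay between 72.0 CPM in arthritic blood and 167 in the peritoneum, with TMM folds of 1.70 in the joint, 1.88 in the lung, 0.953 in arthritic blood and 3.01 in the peritoneum.

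The UMIs of the set were spread more unevenly over the cells of the joint than over those of the other conditions. Every inflammation cell was thinned to 1000 UMIs, and 61 to 155 shallower cells per condition were left out. This kept 354 of 509 cells in healthy blood, 674 of 814 in arthritic blood and 2734 of 2857 in the joint. In the lung it kept 286 of 380 and in the peritoneum 231 of 292, so the loss was smallest in the joint. The median number of UMIs on the 46 genes was then 3 in both healthy blood and the joint. The 90th percentile was 9 in healthy blood and 23 in the joint, the 99th 28 and 79, and the maximum 47 and 119. Cells with at least 10 such UMIs made up 33 of 354 in healthy blood (9.32%, exact interval 6.50 to 12.8) and 671 of 2734 in the joint (24.5%, 22.9 to 26.2). They made up 11.9% of arthritic blood, 11.2% of lung and 15.6% of peritoneal cells. In the joint these cells held 75.8% of the UMIs of the set. The limit of 10 was chosen after the values were seen. The numbers form a continuous range, with 2.01% of joint cells 1 UMI under the limit. The variance of the count over its mean was 25.6 in the joint and 5.16 to 6.70 in the other 4 conditions. The top 10% of cells held 52.3% of the UMIs of the set in the joint, 34.7% to 37.6% in the other 4, and, at 500 UMIs per cell, 38.1% to 48.0% in the healthy libraries.

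**Figure D4:**
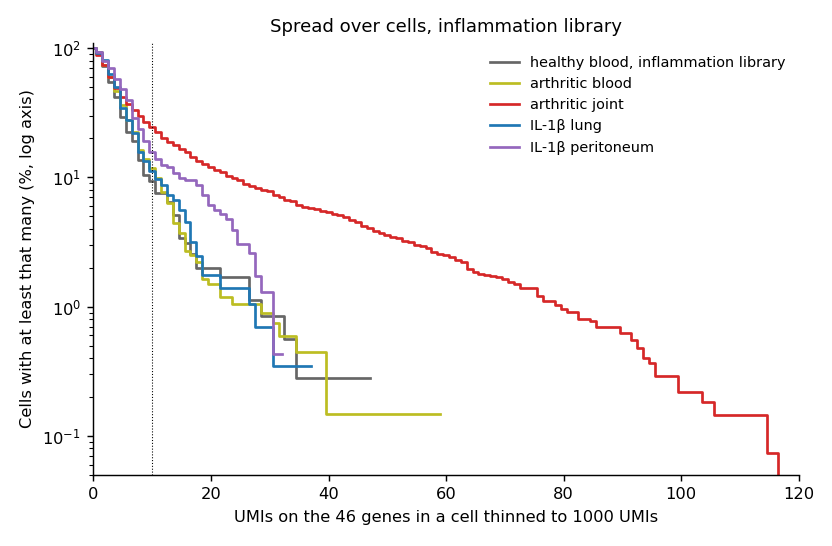
Share of cells (y axis, %, log scale) with at least the number of UMIs on the 46 genes given on the x axis, after thinning each cell to 1000 UMIs, for the 5 conditions of the inflammation library. The dotted line marks 10 UMIs; the joint curve leaves the others near there and reaches 119, whereas the others end at 59 or below.

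Members were high in the same cells. Cells were ranked by the UMIs of all other members, and the CPM of a member in the top 10% was divided by its CPM in the rest, in libraries with at least 20 of its UMIs. Of 44 members with a value, 43 had a median ratio of at least 2, while the median of other genes was 0.982 to 1.22 per library and 4.48% to 17.2% of them reached 2. The IFIT genes led, with Ifit3 at 22.5, Ifit3b at 17.4 and Ifit1 at 17.1 (medians over 8, 7 and 7 libraries or conditions), and Ifit2 at 151 in the joint alone. Ifit3 reached 15.5 to 26.9 in the 6 healthy libraries and 71.2 in the joint. Usp18 (11.1), Rsad2 (9.50) and Isg15 (7.76) came next among members with 6 or more values. The weakest were Samd9l (1.72), Slfn1 (2.02), Irf9 (2.11), Trim30a (2.82) and Parp9 (2.89). Slfn1 and Trim30a were abundant in every library, and both were also among the 3 smallest folds in the joint. Samd9l was at 1.38 over healthy libraries and 3.89 over inflammation conditions. These ratios are a description of cells within libraries, and the members were listed because they belong to 1 pathway.

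**Figure D5:**
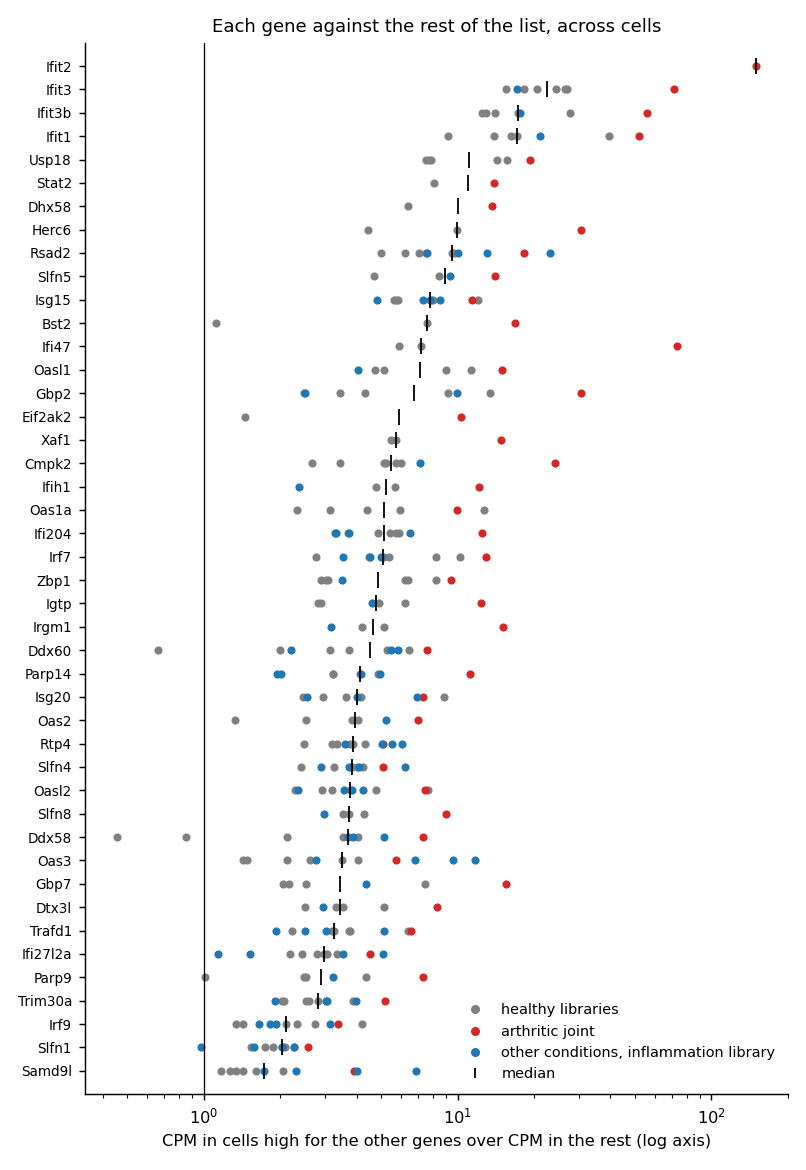
For each member (y axis, ordered by median), its CPM in the cells highest for the other members over its CPM in the remaining cells (x axis, log scale), 1 point per library or condition with at least 20 UMIs of the gene. Nearly all points lie right of 1, the IFIT genes are at the top and Samd9l and Slfn1 at the bottom.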

How the data were processed

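UMI count tables per cell were deposited for 6 healthy libraries and 1 hashtag library of inflammation. The values are UMI counts as the authors deposited them, made with Cell Ranger on mm10 per the labels and not normalized. From the authors' table of cells the condition and the cell annotation were used, and its cell cycle columns were not. Run 1 and run 2 tables share 9112 genes; a gene with no row in a run 1 table was counted as 0 there. Raw counts were summed over the cells used in each library. Healthy tissues were compared with edgeR 4.0.16 in R 4.3.3 (quasi-likelihood test, TMM factors, filterByExpr, Benjamini-Hochberg over 7667 genes, called at an adjusted p of 0.05) with the run as a block, since 1 set of mice gave the 3 tissues of each run, per the study's methods. Same-run deviations from the tissue means correlated at 0.514, 0.570 and 0.465 (Pearson, across 7667 genes, which are not independent replicates). DESeq2 1.42.0 was an alternative. The fit and the cell ratio were tested on simulated data. No doublet caller was run; an alternative kept cells with mitochondrial counts of at most 5% and gene numbers between percentiles 1 and 99.

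The inflammation conditions are 1 pool each and were compared by CPM ratios with exact Poisson or binomial 95% intervals, which cover counting error only, as does the limit of 3 counts for a 0. Cells were thinned to 500 UMIs (healthy) or 1000 UMIs (inflammation) for the spread over cells. Precision follows depth, 942688 to 10293966 UMIs per library or condition. Promoters are those of RefSeq on GRCm38.p6. Named members are the 12 most abundant in healthy libraries, those called, the 6 largest and 3 smallest folds per inflamed condition, the 5 highest and lowest against the rest, any member against the sign of the member median by at least 1 log2 unit in both runs (none met this), and Ifit3 with Ifit3b; members in full class counts are named with them. Named pathway genes were called or past 2-fold, apart from a few given for context after their values were seen. The members, classes and lists were chosen with earlier results of these data known. A gene of the pathway lists is not reported here.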

Additional observations from a re-analysis of the deposited data

Results flagged for a closer look

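In all, 4 members of the set were past 2-fold in opposite directions in different inflamed conditions, each against the same healthy blood. Ifit3 was at 5.66-fold in the arthritic joint and 0.284-fold in the lung after IL-1β. Ifit3b was at 6.34-fold in the joint, 0.319-fold in the lung and 0.447-fold in the peritoneum. Rsad2 was at 5.30-fold in the joint and 0.467-fold in the lung. Cmpk2, its neighbour on chromosome 12, was at 2.78-fold in the joint, 0.307-fold in the lung and 0.453-fold in the peritoneum. The differences between conditions were not tested, since each condition is 1 pool and all share the control, and with TMM scaling none of the 4 was 2-fold lower.

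Cells left out because S100a8 and S100a9 were under 3% of their UMIs also carried UMIs of the set. The share was 0.714% in blood, 0.407% in bone marrow and 0.561% in spleen of run 1, and 0.133%, 0.224% and 0.238% in run 2. Which cells these are was not examined.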

How the results depend on the processing

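The share of the set in spleen minus that in blood, -0.198 percentage points, reversed to 0.0564 in granule-low cells and 0.0335 in cells with no UMI of another cell type, with -0.358 to -0.0374 when a replicate was left out. Blood minus bone marrow was 0.452 (0.284 without Ifi27l2a) and spleen minus bone marrow 0.254 (0.403 in granule-low cells, 0.415 with no UMI of another cell type), with 0.367 to 0.537 and 0.179 to 0.33 when a replicate was left out. In granule-high cells these 2 differences were 0.0361 and 0.0323. Ddx60, not called between blood and bone marrow at a log2 difference of 0.30, was called lower in granule-low cells (-0.80) and in cells with no UMI of another cell type (-0.80). Of the members called between blood and bone marrow (32) or spleen and bone marrow (16), 0 changed sign under any alternative fitted over all genes. Of those not called, 9 of 13, 7 of 29 and, between spleen and blood, 28 of 45 changed sign under at least 1. Calls between blood and bone marrow were 32 with the run as a block; they were 15 without the block, 21 with DESeq2, 18 in cells with no UMI of another cell type, 11 in granule-low cells and 0 to 34 with 1 library left out. Calls between spleen and bone marrow were 16; they were 0 without the block, 10 in cells filtered for quality and 0 to 23 with 1 library left out. Between spleen and blood 0 were called, and 0 to 1 with 1 library left out (1 without spleen replicate 2). Where 1 library was left out, the lone library of its tissue was assumed to vary like the others. The share of UMIs of the set was 0.632% in blood (0.411% without Ifi27l2a), 0.179% in bone marrow (0.127% without Ifi27l2a, 0.347% in cells with no UMI of another cell type, 0.404% in granule-low cells, 0.245% as a mean over cells) and 0.434% in spleen (0.301%, 0.762%, 0.807% and 0.606% in that order). Leaving out a replicate gave 0.529% to 0.734% in blood, 0.162% to 0.196% in bone marrow and 0.375% to 0.492% in spleen. With TMM scaling the ratios of 1.95, 1.06, 1.02 and 1.34 in the joint, arthritic blood, lung and peritoneum became 2.86, 1.45, 1.91 and 2.52. The joint ratio of 1.95 became 2.09 without Ifi27l2a, 1.84 as a mean over cells and 1.58 with no UMI of another cell type. The lung ratio of 1.02 became 1.10, 1.27 and 1.07. The peritoneal ratio of 1.34 became 1.46 without Ifi27l2a, 1.51 in granule-low cells and 1.52 with no UMI of another cell type. Of members past 2-fold, arthritic blood had 4 higher (9 with TMM scaling, 2 at 50 UMIs, 2 with no UMI of another cell type) and 0 lower (1 at 5 UMIs). The lung had 4 higher (15 with TMM, 2 at 50 UMIs) and 6 lower (0 with TMM). The peritoneum had 11 higher (30 with TMM) and 2 lower (0 with TMM, 1 at 50 UMIs, 1 in granule-low cells). In the joint the top 10% of cells held 52.3% of the UMIs of the set, 52.29% at 2000 UMIs per cell and 53.8% without Ifi27l2a, and variance over mean of 25.6 became 52.3 and 24.8. The TMM scaling of the summed share, the filter on cells with no UMI of another type in the inflammation library, and the granule filter on its counts of members, were chosen after seeing the data. Of the other values of single genes called here, of Ddx60 and of the spread over cells under alternatives, 506 kept direction and side of the threshold, 227 no longer passed it and 40 moved. For those changes the cause was not tested. Depth limits Ifit2, Ifi203 and Lgals3bp most.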
